A study of Mus musculus with 8 samples.

Results

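The Hox genes were read in RNAseq counts of FACS-sorted GFP+ (mG+) cells from fat and muscle. They were the protein-coding genes of the deposited count table named as a member of the *Hoxa*, *Hoxb*, *Hoxc* or *Hoxd* cluster, 40 of 54532 genes, of which 22046 are protein-coding. The 40 entries carry 39 symbols, because *Hoxd4* has 2 gene identifiers, and they comprise 11 *Hoxa*, 10 *Hoxb*, 9 *Hoxc* and 10 *Hoxd* entries on chromosomes 6, 11, 15 and 2. No measured value entered this choice.

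Hox genes encode homeodomain transcription factors that set position along the head to tail axis of the embryo. They lie in clusters, and genes at matching places in different clusters form paralogue groups: those of low number act near the head, those of high number in the lumbar and tail region, limbs and genitals. Adult mesenchymal and endothelial cells keep part of the pattern of the body region they came from, and some members act in blood progenitors. In the text below, paralogue groups 1 to 4 are called anterior, 5 to 8 central and 9 to 13 posterior.

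EC-*Tert*-KO mice (Tie2e-cre; TERTfl/fl; mTmG) lack *Tert*, the catalytic subunit of telomerase, where *Cre* under the *Tie2e* promoter has been active, and the WT mice (Tie2e-cre; TERT+/+; mTmG) carry the same *Cre* and the same reporter, which turns such cells and their progeny green. All mice were 8 months old, and the 8 libraries form 4 pairs of 1 KO and 1 WT library: SAT after HFD, and SAT, VAT and skeletal muscle on chow. Whether a library pools several mice is not given in the sources used here. Tie2 regulatory sequences are also active in some blood cells, so the sort need not hold endothelial cells alone.

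Library totals ran from 6214269 to 18855772 counts. In the SAT HFD pair *Tert* had 114 counts in WT and 0 in KO. It had 70 and 11 in the SAT chow pair and 24 and 7 in muscle, but 3 and 9 in VAT, where the label is therefore not shown by the targeted gene and the libraries are called by their labels. The 12 endothelial markers were all counted in every library, and their summed level was between 350 and 708 CPM (counts scaled by TMM to a library of 1e6) in the 4 SAT libraries and between 1820 and 2590 CPM in VAT and muscle. Markers of other cells were present too: the 12 stromal markers summed to 841 to 3680 CPM, the 6 macrophage markers to 7090 and 7310 CPM in VAT against 160 to 729 CPM elsewhere, and the 6 neutrophil markers to 25300 and 29100 CPM in muscle against 52.0 to 254 CPM elsewhere. The 6 T cell markers summed to 1040 to 2740 CPM in SAT and to 157 to 453 CPM in VAT and muscle, and the 5 B cell markers to 1020 to 1720 CPM in SAT and 108 to 765 CPM elsewhere. The SAT chow WT library stood apart: the nuclear RNA *Malat1* had 292 CPM there and 2150 to 5840 CPM in the other 7. Both SAT HFD libraries held few genes with low counts: 7.22% (WT) and 4.17% (KO) of their counted genes had 1 to 9 counts, against 19% to 30.4% in the 6 chow libraries.

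Promoter sequence is shown for both ends of the range of Hox levels: *Hoxa5* and *Hoxb4*, which were counted in all 8 libraries, and *Hoxb1* and *Hoxd12*, which had no count in any. Each is the 250 bases before the RefSeq start of the gene (GRCm38.p6), 5′ to 3′ on the gene's strand, with CG dinucleotides, the substrate of DNA methylation, in capitals. The windows are chr6:52204588-52204837 (minus strand), chr11:96318017-96318266, chr11:96365508-96365757 and chr2:74674763-74675012 (all plus strand).
*Hoxa5*: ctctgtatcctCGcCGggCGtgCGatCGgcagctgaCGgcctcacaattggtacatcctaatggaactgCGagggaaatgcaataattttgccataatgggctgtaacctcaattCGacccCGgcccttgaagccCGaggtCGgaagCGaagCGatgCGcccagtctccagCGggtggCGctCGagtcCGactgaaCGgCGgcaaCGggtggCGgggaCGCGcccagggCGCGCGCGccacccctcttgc
*Hoxb4*: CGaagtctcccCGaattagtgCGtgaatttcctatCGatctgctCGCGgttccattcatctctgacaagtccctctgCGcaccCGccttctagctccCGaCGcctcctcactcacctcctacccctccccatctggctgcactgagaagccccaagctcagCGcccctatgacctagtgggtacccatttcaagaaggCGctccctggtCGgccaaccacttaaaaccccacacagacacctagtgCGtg
*Hoxb1*: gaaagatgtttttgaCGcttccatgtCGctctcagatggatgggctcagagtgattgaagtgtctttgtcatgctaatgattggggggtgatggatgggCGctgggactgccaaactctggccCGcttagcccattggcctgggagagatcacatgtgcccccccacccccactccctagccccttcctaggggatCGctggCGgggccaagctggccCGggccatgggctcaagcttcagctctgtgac
*Hoxd12*: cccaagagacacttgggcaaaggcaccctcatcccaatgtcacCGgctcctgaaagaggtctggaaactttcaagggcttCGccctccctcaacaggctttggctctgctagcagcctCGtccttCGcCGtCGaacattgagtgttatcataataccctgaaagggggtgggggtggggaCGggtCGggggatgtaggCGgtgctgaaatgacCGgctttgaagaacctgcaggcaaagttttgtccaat
The *Hoxa5* window held 28 CG dinucleotides and that of *Hoxb4* 14, against 7 for *Hoxb1* and 10 for *Hoxd12*. Over the 24 Hox promoters in the table used (22 symbols) the median was 12.5, beside 6.0 over all 32841 promoters, and the median GC content was 58.6% beside 52.4%. The order of levels and that of CG dinucleotides differed elsewhere: the *Hoxa13* window held 35 and the gene had 3 counts in all, while the *Hoxa7* window held 7 and the gene was counted in every library. The letters TATAAA, searched on both strands, occurred in 4 of 24 Hox windows (16.7%) and in 12.4% of all. The Hox-PBX composite letters TGATTTAT and TGATTAAT occurred in none of the 24 Hox windows, and in 0.837% and 0.633% of all windows.

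The first question was which Hox genes were counted in each tissue. *Hoxa5*, which patterns the neck and thorax, *Hoxa7* and *Hoxb4*, a regulator of blood stem cell growth, were counted in all 8 libraries, and 13 further entries in 7. *Hoxb1*, a hindbrain gene, and *Hoxc12* and *Hoxd12*, of the tail and distal limb end of their clusters, had no count anywhere. In the chow libraries a count of 0 allows up to 3 counts, or 0.181 to 0.336 CPM depending on the library. In SAT HFD the smallest Hox count above 0 was 10 in WT and 11 in KO, so 3 counts is not a bound there. Of the 9 entries of groups 11 to 13, only *Hoxa11*, *Hoxc11* and *Hoxc13* exceeded 3 counts in any library. The number of entries over 3 counts was 8 (WT) and 12 (KO) for the SAT HFD pair, 18 and 29 for the SAT chow pair, 21 and 26 for VAT, and 27 and 28 for muscle, that is 20% to 72.5% of the 40, while 56.5% to 68.1% of protein-coding genes exceeded 3 counts.

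Per kilobase of gene length, the scale on which genes can be compared, the highest mean levels over the 8 libraries were those of *Hoxa5* (3.30 CPM per kilobase), *Hoxb4* (3.15), *Hoxb6* (2.45), *Hoxa6* (2.13) and *Hoxd8* (2.10). All but *Hoxb4* are central members. The highest *Hoxc* member, *Hoxc6*, had a mean of 0.744 on the same scale. All Hox genes were weakly counted: no member exceeded 12.5 CPM in any library.

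**Figure D1:**
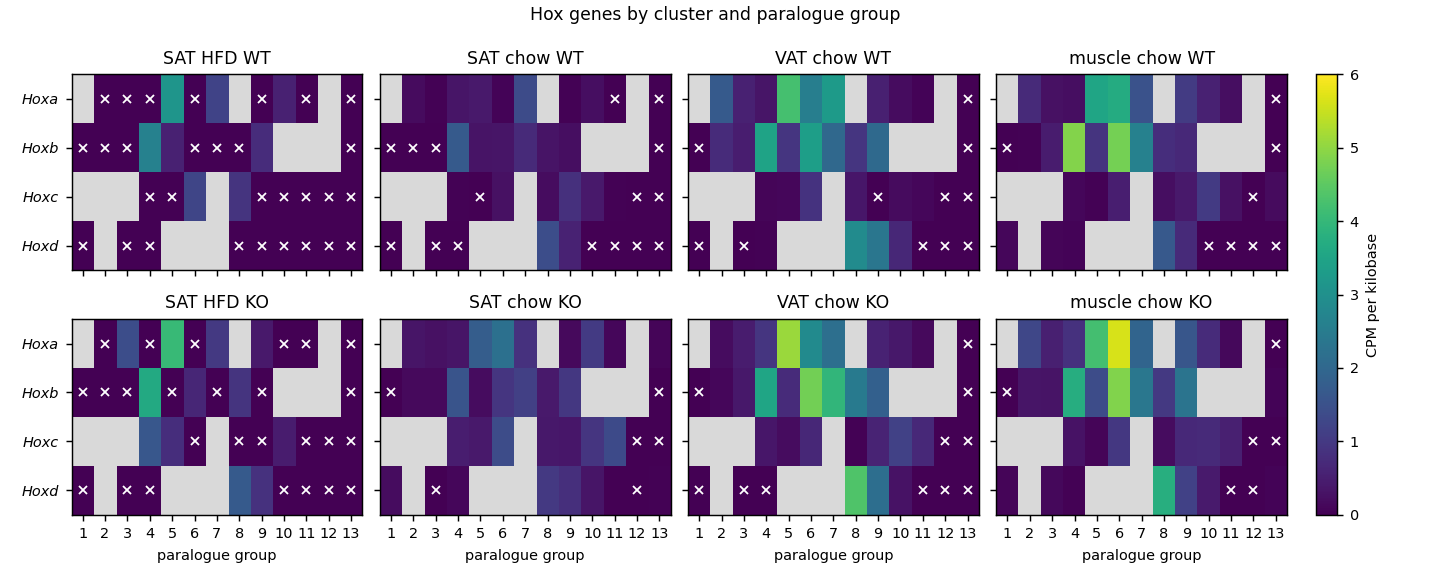
Level of each Hox gene (colour, CPM per kilobase) by cluster (rows) and paralogue group (columns) in the 8 libraries. Grey marks a group without a gene in that cluster or one not shown, a white cross marks 0 counts, and the 2 *Hoxd4* entries are summed; the bright cells lie in groups 4 to 8 of *Hoxa*, *Hoxb* and *Hoxd*, and the SAT HFD panels hold the most crosses.

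The summed level of the 40 entries was lowest in SAT. After HFD the SAT libraries had 26.9 CPM in WT (95% exact Poisson interval 23.1 to 31.2, 179 counts) and 48.3 CPM in KO (44.5 to 52.3, 610 counts). On chow SAT had 24.5 CPM in WT (22.2 to 27.1) and 46.2 CPM in KO (43.0 to 49.6). In VAT it was 82.6 CPM (76.8 to 88.8) in the library labelled WT and 92.9 CPM (87.8 to 98.2) in that labelled KO, and in muscle 73.7 CPM in WT (69.6 to 78) and 97.9 CPM in KO (92.7 to 103). All 4 SAT libraries were thus below all 4 VAT and muscle libraries, and KO was above WT in each pair. These intervals cover counting error only, and in such bulk samples fewer cells of a type and less RNA per cell cannot be told apart. The endothelial sum moved the same way between tissues, and its part in the difference was not tested.

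By cluster, the summed *Hoxa* level was 6.95 to 21.3 CPM in the 4 SAT libraries and 26.5 to 37.5 CPM in VAT and muscle, and that of *Hoxb* 8.4 to 13 and 33.6 to 39.7 CPM. The summed *Hoxc* level overlapped: it was 5.57, 7.52, 4.11 and 12.3 CPM in SAT, 4.25 and 8.32 CPM in VAT and 6.06 and 7.97 CPM in muscle. With *Hoxa* and *Hoxb* lower, *Hoxc* took a larger share of the Hox counts in SAT. Its share was 20.7% (95% Clopper-Pearson interval 15.0 to 27.3) and 15.6% (12.8 to 18.7) in the WT and KO libraries of SAT on HFD, and 16.7% (13.2 to 20.7) and 26.6% (23.5 to 29.9) in those of SAT on chow. In VAT it was 5.15% (3.67 to 7.0) and 8.96% (7.44 to 10.7), and in muscle 8.22% (6.74 to 9.91) and 8.14% (6.74 to 9.73). The 2 SAT HFD shares came from different genes. In WT these were *Hoxc6* (20 counts) and *Hoxc8* (17). In KO they were *Hoxc4* (53), *Hoxc5* (31) and *Hoxc10* (11). Each had 0 counts in the other library, which the intervals do not show. None of the 4 SAT intervals overlapped one of VAT or muscle. This is a description of 8 libraries without replicates of a condition. It needs members with overlapping gene spans: without these the share was 0% in SAT HFD WT and 1.36% in SAT chow WT, while without only the members that share exon bases the SAT shares stayed above the others. *Hoxa* held 28.3% to 44.1% and *Hoxb* 26.9% to 46.6% of the Hox counts, and *Hoxd* 0% (SAT HFD WT) to 20.7% (SAT chow WT), with no such split between SAT and the rest.

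Central groups held 43.9% to 60.9% of the Hox counts in each library, and 51.9% to 66.4% per kilobase of gene length. The posterior share ranged from 10.3% (SAT HFD KO) to 32.3% (SAT chow KO), and was 19.1% to 25.8% in VAT and muscle. The anterior share ranged from 17.8% (VAT labelled KO) to 45.7% (SAT HFD KO); in the latter library *Hoxa3*, *Hoxb4* and *Hoxc4* were the only anterior members counted.

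**Figure D2:**
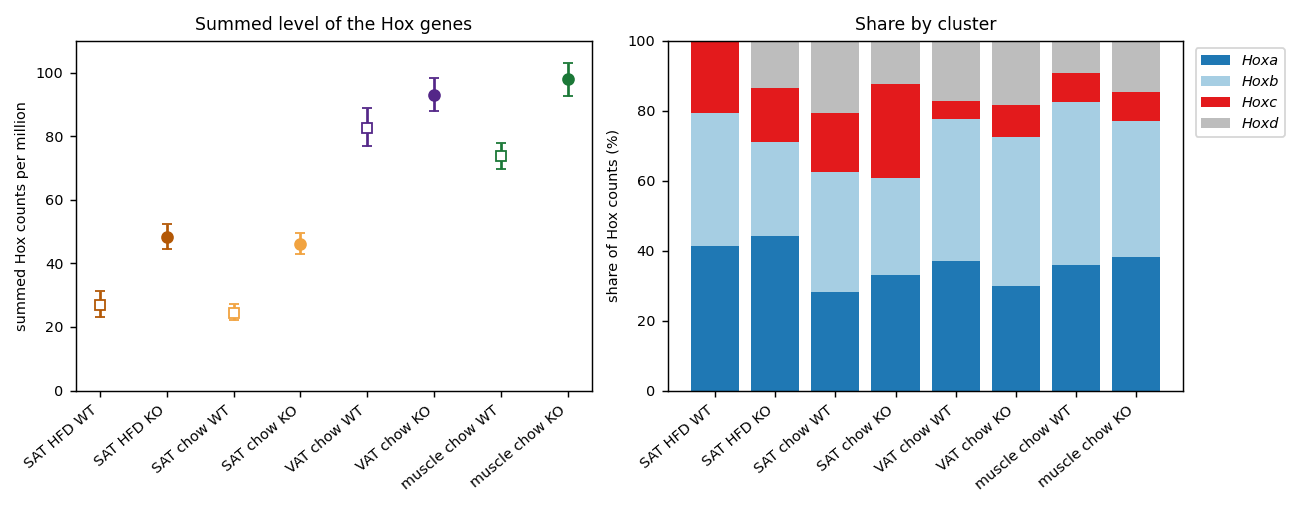
Left, summed Hox level per library (CPM, square WT, filled circle KO, bar 95% Poisson interval); right, share of each library's Hox counts by cluster (%). The 4 SAT libraries lie between 24.5 and 48.3 CPM and the others between 73.7 and 97.9 CPM, and the red *Hoxc* band spans 15.6% to 26.6% in SAT and 5.15% to 8.96% elsewhere.

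The following members were described in each library: the 3 of each cluster with the highest mean level per kilobase, and those with a difference beyond 2-fold in at least 2 pairs. Values are given in the order SAT HFD WT and KO, SAT chow WT and KO, VAT labelled WT and KO, muscle WT and KO.

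Among anterior members, *Hoxb4* had 6.77, 9.34, 4.35, 3.98, 8.96, 9.06, 12.5 and 9.57 CPM. Both SAT chow libraries lay below the other 6. *Hoxa3*, needed for the thymus and parathyroid, had 0, 8.55, 0.242, 1.63, 3.25, 2.73, 1.64 and 3.12 CPM. Its highest value stood in SAT HFD KO and its lowest in the WT library of the same pair, and 25.4% of its exon bases lie antisense to other transcripts. *Hoxc4* had 0, 4.20, 0.0605, 1.21, 0.224, 0.958, 0.242 and 0.725 CPM, so that both SAT KO libraries stood above the rest.

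Among central members, *Hoxa5* had 5.87, 7.60, 0.786, 3.31, 7.95, 9.58, 6.61 and 7.90 CPM. Both SAT chow libraries were below the other 6, also below SAT on HFD. *Hoxb6*, a thoracic and flank gene, had 0, 1.27, 0.665, 1.81, 6.61, 9.28, 9.33 and 9.57 CPM, with all 4 SAT libraries below all 4 of VAT and muscle. *Hoxa6* had 0, 0, 0.0605, 1.93, 2.24, 2.50, 3.21 and 4.93 CPM, and *Hoxb7* 0, 0, 1.09, 1.75, 3.14, 6.11, 4.06 and 3.70 CPM. These genes showed the same separation, and both were at 0 in both SAT HFD libraries.
*Hoxa7* had 3.46, 2.85, 3.93, 2.47, 9.41, 6.34, 4.30 and 5.58 CPM, which again separated SAT from the rest, with the 2 VAT libraries on top. Of its exon bases 20.4% lie antisense to *Hoxaas3*. *Hoxd8* had 0, 4.67, 3.87, 2.71, 7.95, 11.9, 4.61 and 10.3 CPM, with SAT HFD KO just above muscle WT. *Hoxc5* had 0, 2.45, 0, 1.27, 0.336, 0.589, 0.121 and 0.217 CPM and *Hoxc6* 3.01, 0, 0.665, 3.38, 2.13, 1.62, 1.21 and 2.32 CPM. For neither *Hoxc* gene did SAT lie below VAT and muscle: their highest values were in SAT.

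Among posterior members, *Hoxb9* had 1.96, 0, 0.544, 2.53, 5.26, 4.72, 1.76 and 5.94 CPM, and *Hoxd9* 0, 1.82, 1.21, 1.75, 5.04, 4.64, 1.52 and 2.46 CPM. Both VAT libraries were above all SAT libraries for each. *Hoxc10*, a gene of the lumbar region and hindlimb, had 0, 0.871, 0.786, 1.75, 0.336, 2.21, 1.94 and 1.38 CPM, *Hoxc11* 0, 0, 0.0605, 2.71, 0.224, 1.40, 0.545 and 1.09 CPM, and *Hoxd10* 0, 0, 0, 0.603, 1.23, 0.516, 0 and 0.797 CPM. These 3 overlapped between tissues. *Hoxc10* shares 8.70% of its exon bases with *Hoxc5*. Of the remaining members *Hoxa9*, a gene of blood progenitors, reached the highest level in CPM, though not per kilobase (mean 0.544 against 0.85 for *Hoxb8*). It had 0, 2.30, 0.181, 0.844, 2.91, 3.17, 5.88 and 8.99 CPM. Muscle, where markers of neutrophils and their progenitors were high, stood above VAT and SAT, and their part in this was not tested.

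**Figure D3:**
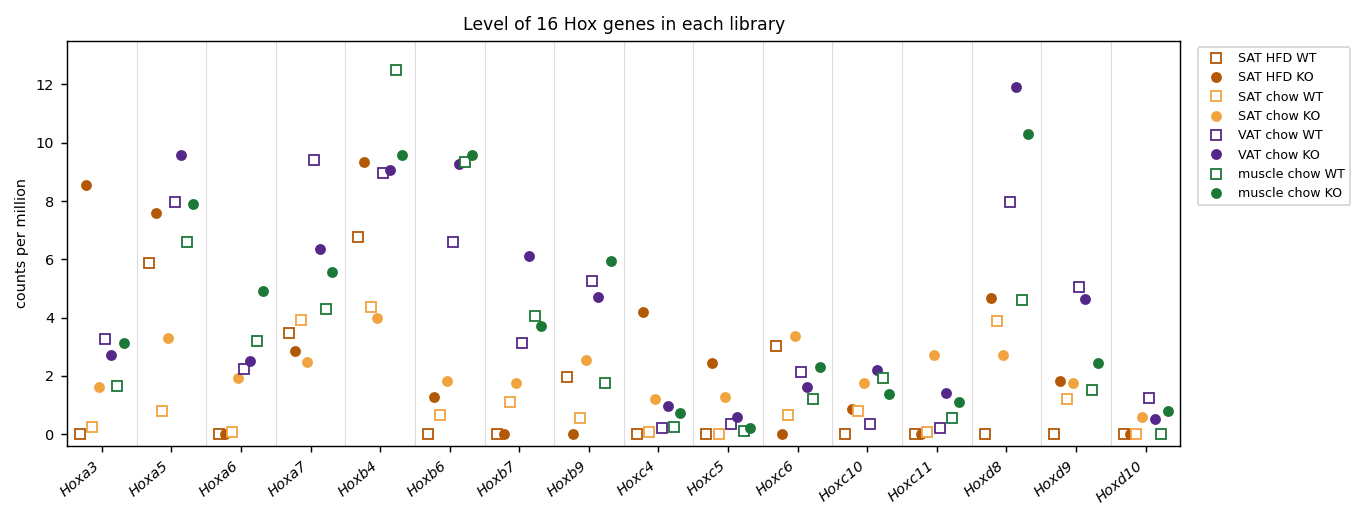
Level (CPM) of the 16 described Hox genes in each of the 8 libraries, colour by tissue and diet, open square WT and filled circle KO. For *Hoxb6*, *Hoxa6*, *Hoxa7* and *Hoxb7* all orange SAT points lie below the purple VAT and green muscle points, which is not so for the *Hoxc* genes.

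The zeros in SAT on HFD had a counterpart in other genes of like level. Of the 20 Hox entries with a mean of 1 to 10 CPM over the chow libraries, 13 (65.0%) had 0 counts in SAT HFD WT and 10 (50%) in SAT HFD KO, against 32.0% and 28.6% of the 3879 protein-coding genes in that range. In the chow libraries at most 1 of the 20 was at 0. The smallest Hox count above 0 was 10 and 11 in the SAT HFD libraries, and 1 or 2 in the others. A 0 in either of these libraries therefore says less than its total count would allow.

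The tissues on chow were then compared with edgeR's quasi-likelihood test across all 8 libraries, in which the WT and KO library of a tissue serve as its 2 libraries. Of the 16971 genes that averaged at least 10 counts, 21 were Hox genes. None of the 21 passed a Benjamini-Hochberg adjusted p of 0.05 in VAT against SAT, where 3.31% of all genes were higher and 1.74% lower. An unadjusted p under 0.05 was seen for 2 of the 21, beside 20.3% of all genes. None passed in muscle against SAT either (background 1.11% higher and 0.147% lower), with 3 at an unadjusted p under 0.05. DESeq2's Wald test called 1 member in each of these comparisons, *Hoxa5* in VAT (adjusted p = 0.0347) and *Hoxa9* in muscle (adjusted p = 0.0299). Of all 16971 genes it called 2230 in VAT against SAT and 1005 in muscle against SAT. In edgeR's fit *Hoxa5* was 2.27 log2 units higher in VAT than in SAT (SE 0.844, unadjusted p = 0.0272, adjusted p = 0.182) and 2.0 higher in muscle (SE 0.837, adjusted p = 0.409). The SAT chow libraries decide the size of this difference. Without the KO library *Hoxa5* was 3.31 higher in VAT. Without the WT library, which stood apart, it was 1.60 higher in VAT and 1.34 higher in muscle. Either fit leaves 1 SAT chow library, so only the size is given. *Hoxb6* was 2.85 higher in VAT (SE 1.22, adjusted p = 0.241) and 3.20 higher in muscle (SE 1.24, adjusted p = 0.360), and *Hoxa9* 4.22 higher in muscle (SE 1.66, adjusted p = 0.374).

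Directions leaned one way without passing the test. The fitted log2 difference from SAT was above 0 for 16 of 21 members in VAT and 19 of 21 in muscle, with medians of 1.74 and 1.33 beside −0.0828 and −0.0918 over all genes. By levels alone, 14 of 21 members had both VAT libraries above both SAT chow libraries, a pattern that 27.8% of all genes showed, and none had both below, against 28.1% of genes. In muscle 13 of 21 were above (21.2% of genes) and none below (22.5%). Against all 4 SAT libraries the numbers above were 12 in VAT (22.3% of genes) and 9 in muscle (16.7%). The 21 members, like the background genes, were set by their mean count over all 8 libraries. Some members met it mainly through VAT and muscle, and so were likelier to lie above SAT. In SAT chow WT and KO *Hoxb3* had 0 and 11 of its 102 counts, *Hoxa9* 3 and 14 of 336 and *Hoxa6* 1 and 32 of 208. No *Hoxc* gene was among the 14 or the 13, but this rests on the SAT chow libraries: without the KO library *Hoxc4*, *Hoxc6* and *Hoxc11* joined in VAT and these and *Hoxc10* in muscle, and without the WT library *Hoxc9* joined in muscle. Of the 5 *Hoxc* genes tested, 4 had a fitted difference below 0 in VAT and 2 in muscle, from −1.69 to 0.83 log2 units, each smaller than its SE. Cell type markers moved in the same fits. Of endothelial markers 8 of 12 were called higher in VAT and 6 of 12 in muscle, and of the 12 stromal markers none was called, with 1 and 4 at an unadjusted p under 0.05. In VAT 6 of 6 macrophage markers were higher and 6 of 6 T cell and 5 of 5 B cell markers lower, and in muscle 6 of 6 neutrophil and 3 of 5 myeloid progenitor markers were higher. What part the make-up of the sort had in the Hox differences was not tested.

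**Figure D4:**
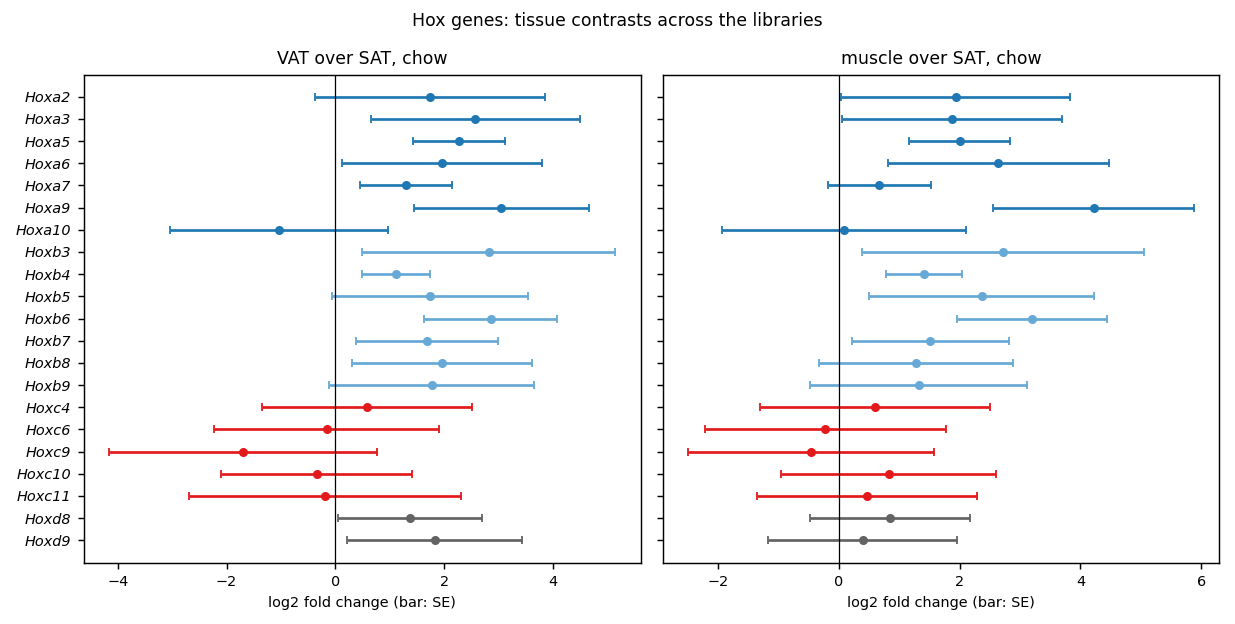
Fitted log2 fold change (point) with its SE (bar) of the 21 tested Hox genes in VAT over SAT and muscle over SAT on chow, coloured by cluster (dark blue *Hoxa*, light blue *Hoxb*, red *Hoxc*, grey *Hoxd*). Most *Hoxa*, *Hoxb* and *Hoxd* points lie right of 0 and the red *Hoxc* points lie around it; none passed an adjusted p of 0.05.

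Muscle and VAT were closer. None of the 21 members passed edgeR's test between them (background 0.884% higher and 1.05% lower in muscle). None had an unadjusted p under 0.05, beside 12.7% of all genes. DESeq2 called none of them, beside 1228 of all 16971 genes. The median difference was 0.01 log2 units beside 0.02 over all genes. Both muscle libraries were above both VAT libraries for *Hoxa6*, *Hoxa9*, *Hoxa10*, *Hoxb4* and *Hoxb6*, 5 of 21 (31.7% of all genes), and below them for *Hoxa5*, *Hoxa7* and *Hoxd9*, 3 of 21 (30% of genes). Neither share exceeded its background.

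HFD was compared with chow in SAT in the same way. No Hox gene passed edgeR's test, and no gene at all did (0% higher and 0% lower). DESeq2 called no member, beside 242 of all 16971 genes. In edgeR's fit 7.98% of all genes had an unadjusted p under 0.05, and among members only *Hoxb7* (0.0109, adjusted p = 0.562). It had 0 counts in both HFD libraries and 18 and 29 on chow. Fitted differences were below 0 for 16 of 21 members, with a median of −1.10 beside −0.24 over all genes. Above 0 were *Hoxa5* (1.88, SE 0.835, adjusted p = 0.634), *Hoxa3*, *Hoxc4*, *Hoxb4* and *Hoxa9*. Diet cannot be told apart from what else sets these 2 libraries apart, such as their few low counts.

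The last question was the effect of *Tert* loss. Across the 4 pairs, none of the 21 Hox genes passed edgeR's test, where 0.00589% of all genes were higher and 0% lower. None had an unadjusted p under 0.05, beside 1.64% of all genes. DESeq2 called none of them, beside 19 of all 16971 genes. The fitted log2 difference was above 0 in KO for 16 of 21, with a median of 1.11 beside 0.02 over all genes and SEs of 0.439 to 1.95. These fits include the SAT HFD pair, in which 9 of all members were counted in KO alone and 5 in WT alone. A 0 there says little, so the lean rests in part on such zeros. The lowest p was that of *Hoxc4*, 3.33 log2 units higher in KO (SE 1.57, unadjusted p = 0.0667, adjusted p = 0.9999). Its counts in WT and KO were 0 and 53 in SAT HFD, 1 and 20 in SAT chow, 2 and 13 in VAT and 4 and 10 in muscle. *Hoxc4* thus met the count minimum through the KO libraries. Although KO was above WT in 4 of 4 pairs, the SAT HFD zero says little, and the counting intervals of the ratio in VAT and muscle included 0. In the same fit 6 of 12 stromal and 5 of 6 mural markers had an unadjusted p under 0.05, with medians of 0.85 and 1.24 log2 units. So had 5 of 6 macrophage markers (median −0.80), 2 of 3 satellite cell markers (−4.82) and 2 of 4 muscle fibre markers (−2.54). The part of these cells in the Hox values was not tested.

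Within pairs there is no replicate check, and a difference describes 2 libraries. Called beyond 2-fold were genes averaging at least 10 counts over both libraries whose 95% Clopper-Pearson interval of the KO to WT ratio, counting error only, lay beyond 2-fold. In SAT on HFD 7 of 11 such Hox genes were higher in KO (12.7% of all genes) and 1 was lower (11.1%). The 7 were *Hoxa3*, *Hoxa9*, *Hoxb8*, *Hoxc4*, *Hoxc5*, *Hoxd8* and *Hoxd9*, each with 0 counts in WT and 23 to 108 in KO, and they met the count minimum through KO alone. *Hoxc6* went the other way, with 20 counts in WT and 0 in KO. No fold is given, since a 0 in these libraries bounds a level less tightly than 3 counts would. The split of 7 to 1 depends on the count minimum and on the deeper KO library: of all members 9 were counted in KO alone and 5 in WT alone, of which 4 (*Hoxa10*, *Hoxb5*, *Hoxb9* and *Hoxc8*, with 10 to 17 counts) fell under the minimum. The 3 remaining genes, *Hoxa5*, *Hoxa7* and *Hoxb4*, were the only Hox genes counted in both libraries of this pair, and none of their intervals lay beyond 2-fold.

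In SAT on chow 9 of 20 Hox genes were higher in KO (19% of all genes) and none was lower (11.7%). *Hoxa6* went from 1 to 32 counts (31.9-fold, log2 interval 2.41 to 10.3), *Hoxc11* from 1 to 45 (44.9-fold, 2.94 to 10.8) and *Hoxc4* from 1 to 20 (19.9-fold, 1.67 to 9.69). *Hoxc5* went from 0 to 21 counts, at least 6.98-fold higher. The others were *Hoxa3* (4 to 27 counts, 6.73-fold), *Hoxc6* (11 to 56, 5.07-fold), *Hoxb9* (9 to 42, 4.65-fold), *Hoxa10* (12 to 55, 4.57-fold) and *Hoxa5* (13 to 55, 4.22-fold). *Hoxb4* and *Hoxd8*, with 72 and 66 and with 64 and 45 counts, were not called. Of the 9, 6 had fewer than 10 counts in WT and met the minimum through KO. In this pair the stromal sum went from 949 CPM in WT to 3680 CPM in KO and the T cell sum from 2740 to 1040 CPM, and the part of these and of the outlying WT library was not tested.

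In VAT 2 of 22 Hox genes were higher in the library labelled KO (2.4% of all genes) and 2 lower (2.09%). *Hoxc9* had 0 and 20 counts, at least 4.39-fold higher, and *Hoxc10* 3 and 30 counts, a ratio of 6.58 (log2 interval 1.03 to 5.07). *Hoxa2*, a gene of the branchial arches, had 27 and 5 counts (8.21-fold lower) and its paralogue *Hoxb2* 23 and 5 (6.99-fold lower). The 2 higher genes had fewer than 10 counts in the library labelled WT and met the minimum through the other. The 2 lower genes met it through the library labelled WT. In muscle *Hoxb9* alone was higher in KO, with 29 and 82 counts (3.38-fold, log2 interval 1.13 to 2.42), 1 of 22 (2.75% of all genes), and none was lower (2.05%).

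Over all members the KO to WT log2 ratio of the summed Hox counts was 0.84 (0.60 to 1.09) for the SAT HFD pair and 0.91 (0.74 to 1.09) for the SAT chow pair, while VAT gave 0.17 (0.04 to 0.30) and muscle 0.41 (0.30 to 0.52). The members beyond 2-fold in more than 1 pair were *Hoxa3*, *Hoxc4* and *Hoxc5*, higher in KO in both SAT pairs, *Hoxb9*, higher in SAT on chow and in muscle, and *Hoxc6*, whose directions in the SAT pairs were opposite. *Hoxa3*, *Hoxc4* and *Hoxc5* had 0 counts in SAT HFD WT and 4, 1 and 0 in SAT chow WT. These 3 met the count minimum through KO in both pairs. The share of all genes higher in both SAT pairs is not given, so their recurrence is a description only.

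**Figure D5:**
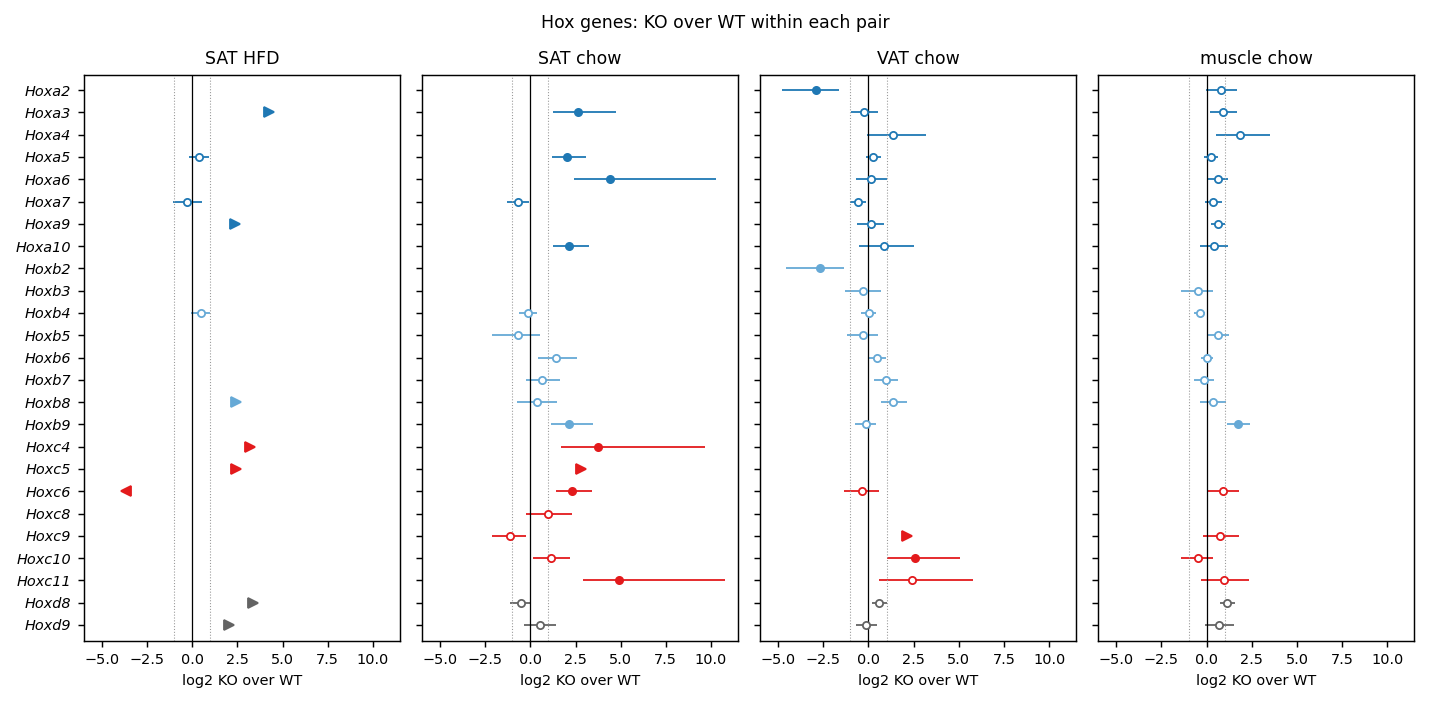
Log2 ratio of KO to WT for the Hox genes shown, which averaged at least 10 counts over both libraries (point, with 95% counting interval; filled where the interval lies beyond 2-fold, dotted lines), with triangles where one library had 0 counts, placed against a floor of 3 counts, which in SAT HFD is not a bound. Filled symbols number 8 in SAT HFD, 9 in SAT chow, 4 in VAT chow and 1 in muscle chow.

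Hox proteins bind DNA together with TALE homeodomain cofactors, the PBX, MEIS and PKNOX (PREP) families. All 9 cofactor genes were tested and none was called by edgeR in any of the 5 comparisons, with at most 3 at an unadjusted p under 0.05. Their summed level was 176 to 188 CPM in SAT, 201 and 199 CPM in VAT and 253 and 250 CPM in muscle. *Meis1* had 1.20, 2.37, 0.846, 3.19, 7.61, 10, 5.52 and 6.52 CPM in the library order above, with SAT below the rest, while *Meis3* ran the other way, from 15.5 to 30.9 CPM in SAT down to 3.21 and 5.36 CPM in muscle.

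Of 16 other transcription factors of limb, trunk and visceral mesoderm, 10 were tested and none was called by edgeR in any comparison, with at most 3 at an unadjusted p under 0.05. *Wt1*, of the mesothelium and visceral fat, had 61 and 89 counts in VAT, 0 in all 4 SAT libraries, and 3 and 0 in muscle. *Tcf21*, of visceral mesenchyme, had 29 and 118 counts in VAT and at most 2 elsewhere. *Tbx15*, of subcutaneous fat and muscle, had 3.46, 4.20, 0.302 and 7.35 CPM in SAT, 0.448 and 0 CPM in VAT and 2.49 and 4.93 CPM in muscle, so that SAT chow WT lay between the VAT libraries. *Meox2*, a homeobox gene of muscle vessels, had 1.82 to 7.41 CPM in SAT and 26.1 to 46.5 CPM in VAT and muscle, and so split the tissues as *Hoxb6* did.

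Of 21 long noncoding, antisense and microRNA genes of the Hox clusters, 16 were in the table and 3 were tested, none of them called by edgeR or at an unadjusted p under 0.05 in any comparison. *Hotairm1*, in the *Hoxa* cluster, had 18, 0, 8, 26, 18, 57, 35 and 50 counts. *Hotair*, in the *Hoxc* cluster, had 9 counts in SAT chow KO, 3 and 7 in VAT, 3 in muscle KO and 0 in the others. Of the 6 microRNA genes only *Mir10a* was counted, with 5 and 1 counts in muscle, in libraries that are not made for small RNA.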

How the data were processed

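RNAseq of sorted mG+ cells was analysed in 8 libraries, 1 per genotype in each of 4 tissue and diet pairs. The deposited values are raw counts per Ensembl gene, which the authors made from reads aligned with HISAT2 2.0.5 to GRCm38 (mm10), per the labels' processing notes. The counting program, the use of strand and the read length are not given in the sources used here. The labels give RNeasy isolation and a SMARTER mRNA kit. No molecular identifiers are described, so reads need not be independent molecules, and intervals and floors cover counting error only.

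Counts were scaled by TMM (edgeR 4.0.16, R 4.3.3) on genes averaging at least 10 counts. edgeR's quasi-likelihood test (robust) was fitted on all 16971 such genes with tissue and diet and genotype as terms, and p-values were adjusted by Benjamini-Hochberg over all of them. The SE given for an edgeR difference is its absolute size divided by the square root of the test's F statistic. It is not a separate estimate. Tissues were compared over 2 libraries of different genotype, so the p-values measure the spread between these libraries, and nothing says how many mice each holds. Within pairs, Clopper-Pearson intervals of the ratio of TMM-scaled counts were used, with a floor of 3 counts for a library at 0. Shares have Clopper-Pearson intervals and sums exact Poisson intervals (scipy 1.17.1). Gene length is that of the table. Exon overlaps come from GENCODE M21, where 38 of the 40 entries have the table's coordinates. Promoters are from RefSeq (GRCm38.p6).

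Members described in every library were to be those with an adjusted p under 0.05 in any comparison (none), the 3 per cluster with the highest mean level per kilobase, and those beyond 2-fold in at least 2 pairs; *Hoxa9* and the cofactors, regional factors and noncoding genes named were chosen after their values were seen. The values of 2 single genes are not reported here. The members and lists were chosen with earlier results of these data known. Alternatives were DESeq2 1.42.0 (size factors, Wald test), library totals, looser and stricter count filters, no genotype or tissue term, chow libraries only, and leaving out each library. Tested on simulated data of 16971 genes with 200 changed, the test of VAT against SAT recovered 75% of 4-fold and 100% of 16-fold changes at a dispersion of 0.1, and 1% and 17% at 0.4. For KO against WT these were 98% and 100%, and 9% and 95%. The changed genes were drawn from all genes, at a common dispersion. Recovery at the low counts of the Hox genes was not measured, and the dispersion of the real data is not given.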

Additional observations from a re-analysis of the deposited data

Results flagged for a closer look

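*Hoxc6* went in opposite directions in the SAT pairs. On HFD its counts were 20 (WT) and 0 (KO), 12.7-fold lower if 3 counts are taken for the 0, and it was 5.07-fold higher in KO on chow, with 11 counts in WT and 56 in KO. With 1 library per genotype in each pair, the difference between the pairs was not tested. The smallest Hox count above 0 in the SAT HFD KO library was 11, so that this fold is not a bound.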

How the results depend on the processing

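Under every alternative that kept both libraries of a tissue and diet, the number of Hox genes passing stayed at 0 in all 5 comparisons. The exception was DESeq2's Wald test, which gave 1 in VAT and 1 in muscle against SAT, beside 2230 and 1005 of all 16971 genes. Leaving out a single library leaves 1 in its tissue and diet, so the numbers passing are not given for it. None of the gene values at an unadjusted p under 0.05 changed direction. Of the counts within pairs, that of VAT higher fell from 2 to 1 with DESeq2 size factors, under which the interval of the summed VAT ratio also included 0. The number of members with both libraries above both of SAT was 13 in muscle (21.2% of genes) and 12 with library totals (22.2%). On leaving out a SAT chow library it was 20 without KO, beside 44.1% of genes, and 14 without WT, beside 36.4%. In VAT it was 14 (27.8% of genes), 18 without SAT chow KO, beside 45.3%, and 14 without SAT chow WT, beside 39.0%. The highest SAT sum rose from 48.3 to 54.9 CPM with library totals, still below the other tissues. Without members of overlapping gene spans the lowest SAT *Hoxc* share fell from 15.6% to 0%, the highest outside SAT from 8.96% to 6.81%, and the central share ran from 0% to 36.4%, since *Hoxa5*, *Hoxb6* and others leave the sum. The lowest central share was 51.9% per kilobase and 48.8% without members that share exon bases, an alternative chosen after seeing the data, as were those of the sums and of the libraries set above each other. The labels give no replicate numbers; tissue and diet served as the block across pairs, and without it 0 members passed. Depth limits all of this: most members had fewer than 100 counts in a library.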

Other observations

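Genes that keep Hox clusters silent or active were mostly counted in every library. Of 22 such genes (Polycomb and trithorax group, the *Cdx* genes, *Rarb* and *Gdf11*) 18 were tested, none was called by edgeR in any of the 5 comparisons and at most 5 had an unadjusted p under 0.05. *Kdm6b*, a demethylase of the Polycomb mark H3K27me3, had 75.2 CPM in SAT chow WT and 405 to 1400 CPM in the other 7 libraries, and *Kmt2a*, a trithorax methyltransferase, 128 CPM there and 230 to 604 CPM in the others. The Polycomb subunits *Eed* (55.6 to 73.7 CPM) and *Suz12* (59.9 to 136 CPM) varied less. *Ezh2*, the methyltransferase of the complex in dividing cells, was highest in muscle, with 65.8 and 77.4 CPM against 19.4 to 43.2 CPM elsewhere. *Cdx2* and *Cdx4*, which drive posterior Hox genes in the embryo, had no count, and *Cdx1* had 3 counts in SAT chow WT alone.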
